A study of Mus musculus with 12 samples.

Results

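Outer segment disc and matrix structure was followed through 9 genes, Prph2, Rom1, Prom1, Cdhr1, Prcd, Rp1, Rp1l1, Impg1 and Impg2, which were chosen by symbol from the 56748 genes of the table. All 9 were found, with 1 entry each, and all 9 passed the filter on low values in every comparison. RNA sequencing gave 12 libraries, 3 for each of 4 groups, from littermate mice at an age of 2 weeks. Het mice were RiboTag;Shp2fl/+;i75-Rod-Cre and KO mice were RiboTag;Shp2fl/fl;i75-Rod-Cre, where Shp2 is the phosphatase encoded by Ptpn11. Every mouse therefore carried the Cre, which a rod promoter drives, and the ribosomal protein Rpl22 with an HA tag in Cre-expressing cells. The Het controls are not wild type, since they can lose 1 Shp2 allele in rods, and mice without Cre were not analysed here. "Rods" below means RNA pulled down on beads with tagged ribosomes (translating ribosome affinity purification, TRAP), and "retina" means the input RNA of the whole tissue. How many animals stand behind a library is not given in the sources used here, so the p-values measure the spread between these libraries.

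The outer segment of a rod is a modified cilium filled with a stack of membrane discs. Peripherin-2 (Prph2) and its partner Rom1 are tetraspanins that shape the highly curved disc rim. Prominin-1 (Prom1) and the photoreceptor cadherin Cdhr1 sit at the base of the outer segment, where new discs form, and Prcd encodes a small disc membrane protein. Rp1 and Rp1l1 are doublecortin-domain proteins along the axoneme, the microtubule core of the cilium. Impg1 and Impg2 are proteoglycans of the matrix that surrounds inner and outer segments, Impg1 secreted and Impg2 spanning the membrane. Mutations in all of these genes are known from inherited retinal disease, and mouse outer segments are still growing at this age.

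The genes lie on different chromosomes of GRCm38, the build of the annotation used here, except Cdhr1 and Rp1l1, which are both on chromosome 14. Prph2 is on chromosome 17, Rom1 on 19, Prom1 on 5, Prcd on 11, Rp1 on 1, Impg1 on 9 and Impg2 on 16. They differ in base composition, which is set beside the comparison of genotypes below. The longest coding transcript held 60.5% G or C in Prcd, 57.1% in Rom1, 55.2% in Rp1l1, 54.1% in Prph2 and 50.8% in Cdhr1. It held 45.8% in Prom1, 45.3% in Impg1, 42.4% in Impg2 and 39.6% in Rp1. To show this contrast, a coding stretch of 120 bases whose composition is close to that of its whole transcript is printed, 5′ to 3′ with G and C in capitals, for 2 genes rich in G and C and 2 poor in them.
Prph2: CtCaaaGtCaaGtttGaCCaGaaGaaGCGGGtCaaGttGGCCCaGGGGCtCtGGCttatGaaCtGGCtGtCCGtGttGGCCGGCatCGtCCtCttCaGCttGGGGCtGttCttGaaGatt
Rom1: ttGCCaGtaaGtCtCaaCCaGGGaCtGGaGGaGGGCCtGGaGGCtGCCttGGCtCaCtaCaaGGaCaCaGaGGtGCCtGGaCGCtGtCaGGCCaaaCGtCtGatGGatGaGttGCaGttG
Impg2: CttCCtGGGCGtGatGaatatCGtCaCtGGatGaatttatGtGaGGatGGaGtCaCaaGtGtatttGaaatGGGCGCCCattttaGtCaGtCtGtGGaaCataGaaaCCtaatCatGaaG
Rp1: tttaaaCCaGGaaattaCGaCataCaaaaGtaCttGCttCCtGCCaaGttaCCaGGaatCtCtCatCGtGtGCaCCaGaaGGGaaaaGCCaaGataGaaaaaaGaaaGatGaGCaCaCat
Capitals make up 54.2% of the Prph2 stretch and 57.5% of the Rom1 stretch, against 42.5% for Impg2 and 40.0% for Rp1. In the RefSeq promoters of GRCm38.p6, which reach from 250 bases before to 50 after a start, TAATCC, a site of the type bound by the photoreceptor factor CRX, was searched on both strands. It occurred in 7.1% of 32851 promoters, and among 8 promoters of 7 of the genes it was found once, for Prcd. TGCTGA, a site of the type bound by the rod factor NRL, occurred in 19.5% of all promoters and in none of these 8.

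Values are a signal proportional to reads, and levels are given in ppm, the gene's share of the library's total times 1000000. Totals lay within 16263948 to 16265259 for rod libraries and 14525527 to 14527992 for retina libraries. The values thus look scaled to a shared total within each fraction, a step inferred from them. The estimated depth, in units of 1000000 reads, was 11.9 to 25.3 for the 6 rod libraries and 10 to 19.2 for the 5 retina libraries where they could be estimated. The rod and Müller glia marker lists followed the labels: rod markers summed to 14.9% to 17.8% of the total in rods and 4.84% to 6.27% in retina, while Müller glia markers summed to 0.0124% to 0.0208% and 0.303% to 0.488%. The sums of retinal pigment epithelium markers and of lens markers overlapped between rod and retina libraries. Some libraries stood apart in lens markers, which reached 5.16% of the total in KO retina replicate 3 and lay at 0.000895% in Het retina replicate 1. Ptpn11, the targeted gene, was at 2018 ± 242 scaled units in KO rods and 2381 ± 35.2 in Het rods (SD, n = 3), a log2 difference of -0.25 that did not pass the test (limma, adjusted p = 0.0625).

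All 9 genes were higher in rods than in retina, in both genotypes. Their sum was 2.76% to 2.88% of the total in Het rods against 1.06% to 1.39% in Het retina, and 3.11% to 3.33% in KO rods against 1.2% to 1.25% in KO retina. A gene was counted as changed at a Benjamini-Hochberg adjusted p below 0.05 in limma and an absolute log2 fold change above 0.5. By that rule 9 of 9 were higher in Het rods than in Het retina, where 21.4% of the 16110 genes tested were, and 9 of 9 were higher in KO rods than in KO retina, where the share was 25.7% of 16121 genes. After TMM scaling, which sets libraries by the bulk of their genes, every rod library lay above every retina library of its genotype for each of the 9, as it did for 28.5% of all genes in Het and 32.7% in KO mice. In bulk RNA, fewer cells of a type and less RNA per cell cannot be told apart.

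**Figure D1:**
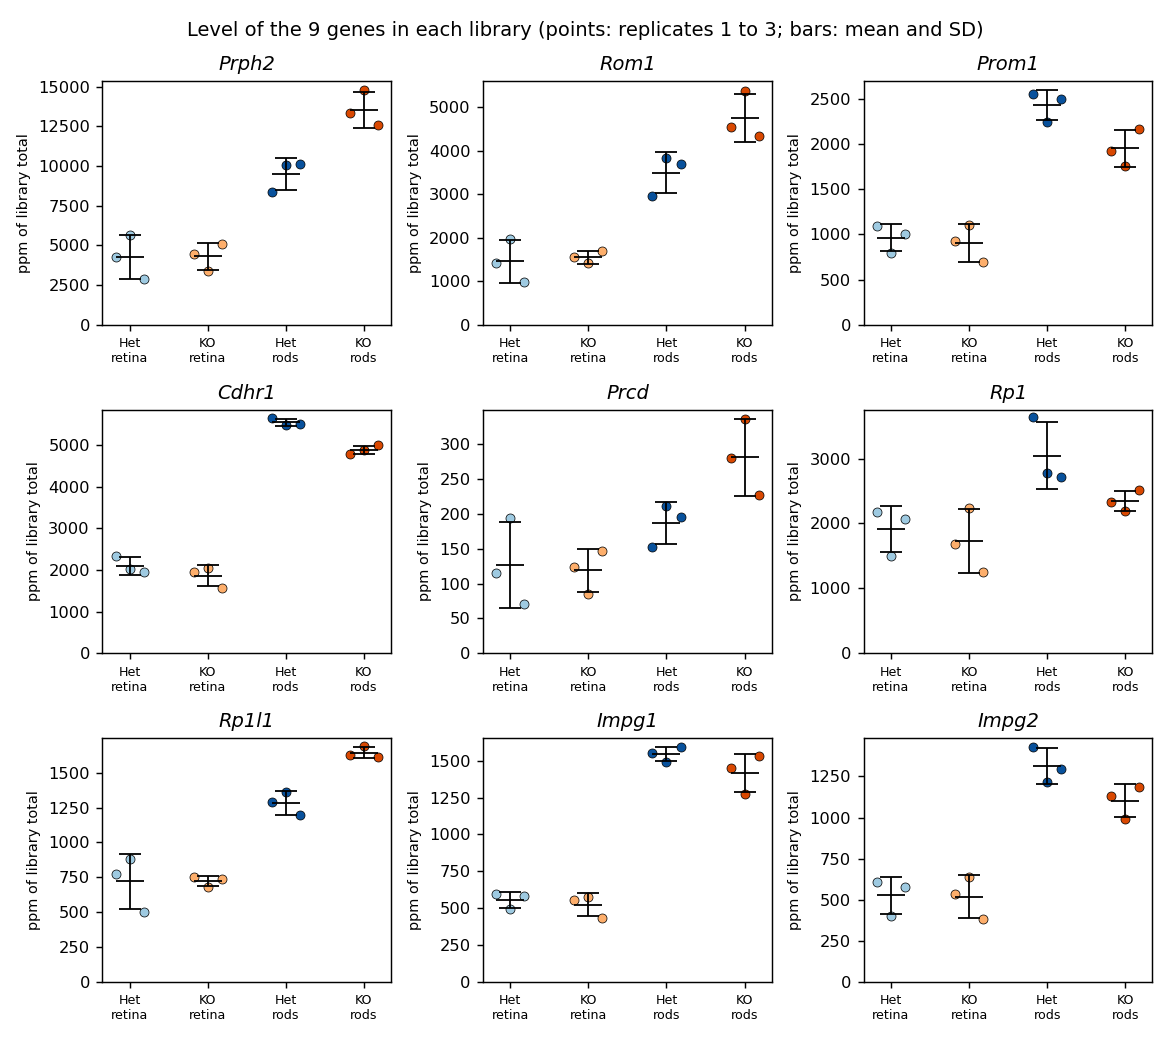
Level of each gene, in ppm of the library's total on a linear axis from 0, in the 3 libraries of each group, with bars for the mean and SD. The means of both rod groups lie above those of both retina groups for all 9 genes, single libraries of Prcd and Rp1 overlap, and all KO rod libraries lie above Het rods for Prph2, Rom1, Prcd and Rp1l1.

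The disc rim pair was the most abundant per length. Prph2 stood at 8361, 10094 and 10099 ppm in Het rods replicates 1 to 3 and at 4240, 5686 and 2897 in Het retina. In KO mice it stood at 13310, 14760 and 12562 ppm in rods and at 4433, 3410 and 5069 in retina. Every rod library lay above every retina library in both genotypes. On the log2 scale Prph2 was higher in rods by 1.61 (SE 0.23) in Het and by 2.20 (SE 0.17) in KO mice, with adjusted p-values of 2.7e-04 and 6.7e-06 in limma. Rom1 followed it, at 2963, 3829 and 3700 ppm in Het rods and 1418, 1976 and 994 in Het retina. Its 3 values were 4536, 5384 and 4336 ppm in KO rods and 1547, 1413 and 1707 in KO retina. No Rom1 retina library reached the level of a rod library. The log2 difference of Rom1 was 1.72 (SE 0.24) in Het and 2.14 (SE 0.13) in KO mice. Prph2 ranked 7 among all genes in every Het rod library and 4 to 6 in KO rods.

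The genes of disc formation were led by Cdhr1. It stood at 5646, 5470 and 5500 ppm in Het rods and at 2334, 2015 and 1940 in Het retina, and its Het rod libraries varied the least of all 9 genes, with a coefficient of variation of 1.7%. In KO mice Cdhr1 was at 4788, 4882 and 4986 ppm in rods and 1940, 2058 and 1571 in retina. Its log2 differences were 1.82 (SE 0.10) and 1.94 (SE 0.12). Prom1 was at 2556, 2239 and 2501 ppm in Het rods against 1089, 797 and 1002 in Het retina, and was higher by 1.76 in Het and by 1.66 in KO mice on the log2 scale. Prcd was the lowest of the 9 in every group by its level in ppm. Its values were 153, 211 and 195 ppm in Het rods and 115, 194 and 70.8 in Het retina. By this level Het rods replicate 1 lay below Het retina replicate 2, and the groups came apart with TMM scaling. The log2 difference of Prcd was 1.08 (SE 0.32, limma adjusted p = 0.0178) in Het mice and 1.79 (SE 0.22) in KO mice. In Het mice Prcd no longer passed with library-size scaling (0.66, adjusted p = 0.109) or without Het rods replicate 2, Het rods replicate 3 or Het retina replicate 1 (0.98, 1.03 and 0.95, adjusted p = 0.0611, 0.0578 and 0.0652). It moved to 0.65 without Het retina replicate 3 and to 1.79 with each library's trend with GC content subtracted, and passed in both. Its exons share 201 of 1534 bases with those of Cygb on the opposite strand, so that reads there can belong to either gene. Cygb was at 93 to 234 deposited units in rods and 518 to 1536 in retina.

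Rp1, the first of the axonemal pair, stood at 3637, 2774 and 2722 ppm in Het rods against 2172, 1502 and 2073 in Het retina, and at 2336, 2199 and 2514 in KO rods against 1690, 2234 and 1258 in KO retina. KO rods replicate 2 thus lay below KO retina replicate 2 by this level, and these groups too came apart with TMM scaling. The log2 differences of Rp1 were 1.09 (SE 0.16) in Het and 1.01 (SE 0.18) in KO mice. With library-size scaling the KO value was 0.48, short of the limit, and the Het value 0.67, and without KO retina replicate 3 the KO value was 0.63. Rp1l1 was higher in rods by 1.28 (SE 0.19) in Het and by 1.72 (SE 0.11) in KO mice.

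Both matrix proteoglycans were well apart between fractions. Impg1 was at 1554, 1494 and 1593 ppm in Het rods and 593, 493 and 580 in Het retina, and at 1449, 1272 and 1530 in KO rods and 558, 578 and 434 in KO retina. Its log2 differences of 1.89 (SE 0.11) and 1.98 (SE 0.13) were the largest of the 9 in Het mice and close behind Prph2 and Rom1 in KO mice. Impg2 was at 1432, 1215 and 1298 ppm in Het rods and 606, 398 and 576 in Het retina, and was higher by 1.75 in Het and by 1.65 in KO mice.

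**Figure D2:**
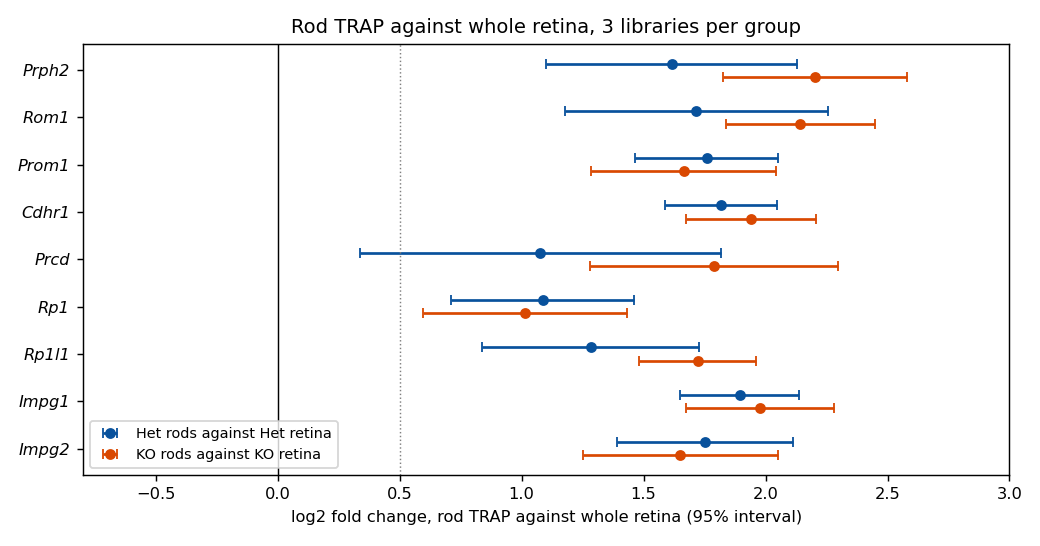
Log2 fold change of rods against retina for each gene with its 95% interval, in Het (blue) and KO (orange) mice, 3 libraries per group; the dotted line marks 0.5. All 18 estimates are above 1, from 1.01 for Rp1 in KO mice to 2.20 for Prph2 in KO mice.

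Library-size scaling lowered these differences together with the rest, because the median of all genes moved from -0.11 to -0.51 in Het and from -0.02 to -0.55 in KO mice on the log2 scale. The members lay above that median under both scalings.

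Per kilobase of the longest coding transcript, Het rods held 3572 ± 376 ppm of Prph2, 2305 ± 308 of Rom1 and 1279 ± 21.8 of Cdhr1 (SD, n = 3). Prom1 came next at 595 ± 41.4, then Impg1 at 461 ± 14.9 and Rp1 at 443 ± 74.8 ppm per kilobase. Rp1l1, Impg2 and Prcd closed the order at 192 ± 12.4, 191 ± 15.9 and 152 ± 24.7. The ranges of 1 SD met for Impg1 and Rp1, for Rp1l1 and Impg2, and for Impg2 and Prcd. In KO rods the first 5 genes kept this order, and Prcd, at 229 ± 44.7, stood above Impg2, at 160 ± 14.6.

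Other genes of the outer segment, from lists written for this comparison, differed by list between fractions. A rise in rods was not particular to the 9 genes. All 10 rod markers were higher in Het rods than in Het retina, as were 21.4% of all genes tested. Their median log2 difference was 1.82, against 1.72 for the 9 genes. Of 9 other disc and plasma membrane proteins, 9 were higher in Het rods than in Het retina, with a median log2 difference of 1.33 against -0.11 over all genes tested. The sodium-calcium-potassium exchanger Slc24a1 and the retinoid transporter Abca4 had differences of 1.85 and 1.31. Of 12 proteins of outer segment building, axoneme and connecting cilium, 7 were higher, 1 was lower and 4 did not pass, where 36.8% of all genes tested were lower. Tulp1, a protein of photoreceptor protein transport, was higher by 1.29, Pcare, an actin regulator of disc formation, stood at 0.24 and did not pass, and Rpgrip1, an anchor of the connecting cilium, was lower, at 4162 ± 199.8 scaled units in rods and 8516 ± 2183 in retina (SD, n = 3). Of 7 tested matrix and extracellular proteins, 4 were higher and 3 lower, with Rbp3, the retinoid-binding protein of the matrix, at 1.72 and Egflam, pikachurin, at 1.72.

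The comparison of KO with Het rods asked whether loss of the remaining Shp2 allele in rods changed these genes on ribosomes. Of the 9, 3 were higher in KO rods (Prph2, Rom1 and Prcd), none was lower and 6 did not pass. Of the 10076 genes tested after removal of 5923 rod-depleted genes, 12.7% were higher and 2.03% were lower. The rise of Prph2 was 0.61 on the log2 scale (SE 0.10, limma adjusted p = 0.0042), that of Rom1 0.54 (SE 0.13, adjusted p = 0.0153) and that of Prcd 0.68 (SE 0.19, adjusted p = 0.0416). Prcd stood at 281, 336 and 227 ppm in KO rods, above the Het rod values given before. Rp1l1 was at 1630, 1690 and 1611 ppm in KO rods and 1292, 1360 and 1195 in Het rods. It passed the p-value limit (adjusted p = 0.0038), but its log2 difference of 0.46 (SE 0.07) was under 0.5. All KO libraries lay above all Het libraries for these 4 genes, as for 25.8% of the genes tested.

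The other 5 genes had log2 differences below 0. Rp1 stood at -0.27 (95% interval -0.49 to -0.04, limma adjusted p = 0.0717) and Prom1 at -0.22 (-0.41 to -0.04, adjusted p = 0.0619). Cdhr1 was at -0.08, Impg1 at -0.03 and Impg2 at -0.16. The KO libraries of Rp1 and Cdhr1 lay below all Het libraries after TMM scaling, as for 22.4% of the genes tested, and those of Prom1, Impg1 and Impg2 overlapped with Het on that scale. Over the 9 genes the median was -0.03, next to -0.02 over all genes tested. Of the other outer segment lists, 1 of 9 disc and plasma membrane proteins, 2 of 11 building and cilium proteins and 1 of 4 matrix proteins were higher and none was lower. These 4 were the channel subunit Cngb1 at 0.59, Tulp1 at 0.82, Pcare at 0.65 and the secreted Mfge8 at 0.82. Of them, Cngb1 and Mfge8 were chosen after their values were seen. All 4 values come from the fit without each library's trend with GC content subtracted. In that fit 12.7% of all genes tested were higher. Lens markers had a median log2 difference of 2.43 in the same direction, none of 8 past the test. In replicates 1 to 3 they summed to 0.0117%, 0.0233% and 0.0829% in KO rods and to 3.69e-05%, 0.0185% and 0.0288% in Het rods. Only Het rods replicate 1 lay below the KO libraries, and the part of lens markers in these results was not tested.

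The 9 differences followed base composition. The 4 genes above 54% G or C were the ones with all KO libraries above Het, and the 5 genes at 50.8% or below had values under 0. The rank correlation of the log2 difference with transcript GC content was 0.87 over the 9 genes and 0.73 over 9982 genes, given as a description over genes that share the same 6 libraries. The libraries themselves differed in this respect. In each library, the median deviation of genes in the lowest 10% of GC content was subtracted from that of genes in the highest 10%, each deviation taken from the gene's mean over the 6 libraries of the fraction. This trend was -0.81, -0.23 and -0.42 in the Het rod libraries and 0.42, 0.76 and 0.28 in the KO rod libraries on the log2 scale. The genotypes do not overlap, so that in rods the trend and the genotype cannot be told apart.

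**Figure D3:**
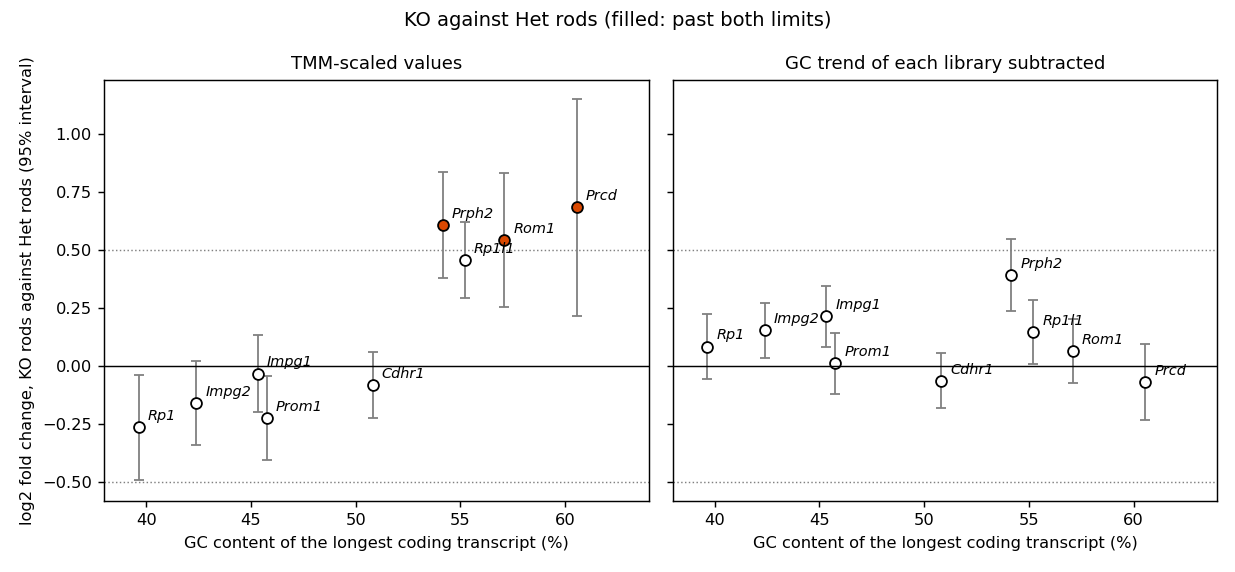
Log2 fold change of KO against Het rods, with its 95% interval, against the GC content of the longest coding transcript, before (left) and after (right) each library's GC trend was subtracted; filled points passed both limits and dotted lines mark 0.5 and -0.5. On the left the 4 genes of highest GC content lie apart from the rest, and on the right 0 of 9 genes are filled.

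With a smooth trend of each library with GC content subtracted, 0 of 9 genes passed, and 357 genes in all did (3.54%). Rom1 then stood at 0.06 and Prcd at -0.07. Prph2 kept 0.39 (95% interval 0.24 to 0.55, limma adjusted p = 0.0063), under the limit of 0.5. Rp1l1 was at 0.15, Rp1 at 0.08, Prom1 at 0.01, Impg2 at 0.15 and Impg1 at 0.21 (adjusted p = 0.0422), all of them above 0, and Cdhr1 stayed below 0 at -0.06. Since the trend differs between genotypes, subtracting it also removes any effect of genotype that follows GC content. Over the 17 alternatives run, Prph2 passed in 13, Rom1 in 9 and Prcd in 7. Leaving out single libraries changed the count. Of the 9 genes, 0 passed without Het rods replicate 1, where Prph2 was at 0.49 and Rom1 at 0.40, and 1 passed without KO rods replicate 2. Of all genes tested, 9.31% and 10.5% passed in these fits, against 14.7% with every library.

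In whole retina, none of the 9 genes passed between KO and Het mice, with log2 differences from -0.18 for Cdhr1 to 0.15 for Rom1. Of 16863 genes tested by limma, 0 passed (0%), with 140 (0.83%) at an unadjusted p below 0.05. An interaction over the 12 libraries tested whether the KO effect differed between fractions, and it passed for 0 of 9 genes and 0 of 17192 genes (0%), with 603 genes (3.51%) at an unadjusted p below 0.05. For Prph2 the 2 effects, 0.61 in rods and 0.05 in retina, differed by 0.44 in that fit (95% interval -0.20 to 1.08, adjusted p = 0.80). Without Het retina replicate 3 this value was 0.75 (adjusted p = 0.34), and with the GC trend subtracted it was 0.28.

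The same trend was seen between retina libraries of 1 genotype. It was highest in Het retina replicate 2 (0.86) and KO retina replicate 3 (0.90) and lowest in Het retina replicate 3 (-0.84) and KO retina replicate 2 (-0.63). The first 2 libraries held the highest Prph2, Rom1 and Prcd of the 6 and the lowest Rp1, Prom1, Impg1 and Impg2. By level in ppm the other 2 held the lowest Prph2, Rom1, Prcd and Rp1l1. After TMM scaling Rom1 was slightly lower in Het retina replicate 1 than in KO retina replicate 2. Rp1 was at 1502 and 1258 ppm in the first pair, against 2073 and 2234 in the second. Each pair held 1 library of each genotype. Lens markers summed to 1.62% (Het) and 5.16% (KO) in the first pair and to 1.61% (Het) and 1.08% (KO) in the second. They thus differed between the pairs in KO retina and hardly in Het retina, and their part in the result was not tested.

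**Figure D4:**
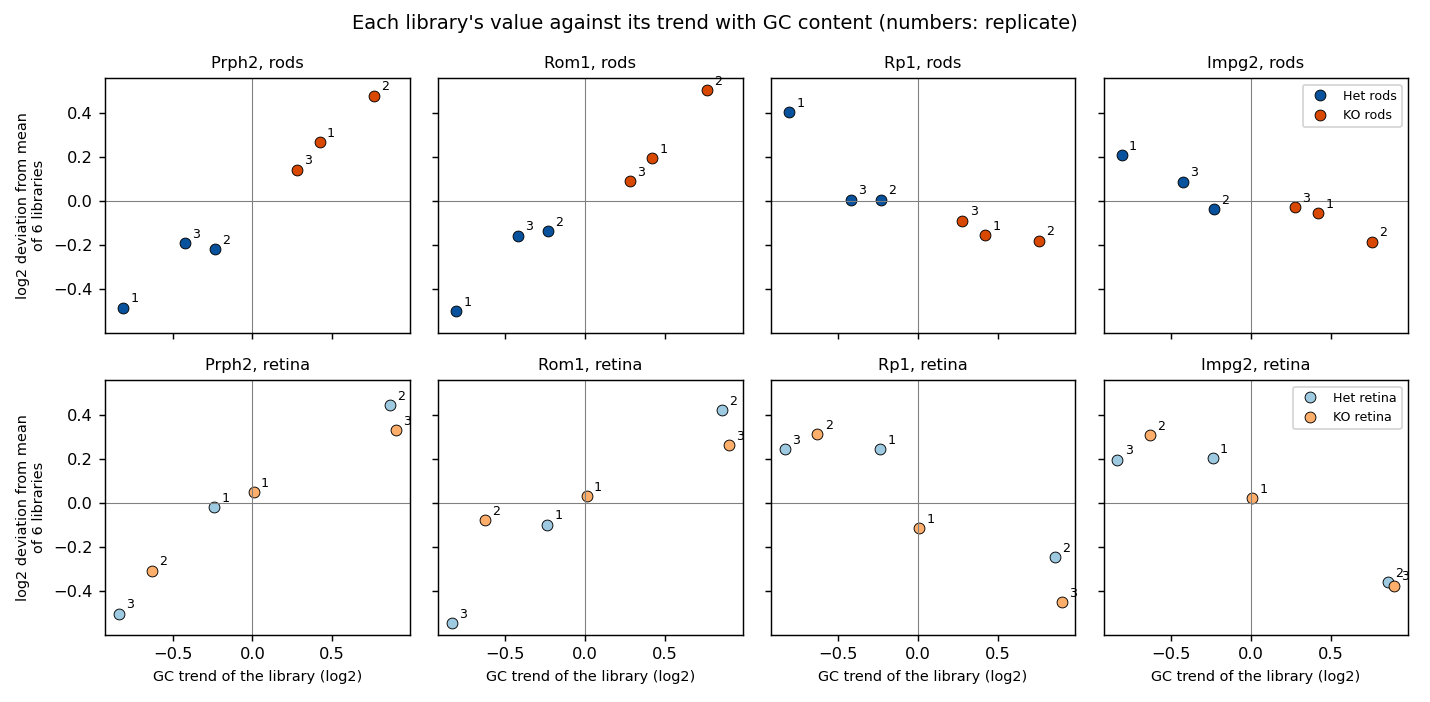
Log2 deviation of 4 genes from their mean over the 6 libraries of a fraction, against the GC trend of each library, in rods (top) and retina (bottom), with replicate numbers beside the points. Prph2 and Rom1 lie higher, and Rp1 and Impg2 lower, in libraries with a high trend, which are the KO libraries in rods and 1 library of each genotype in retina.

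Ratios of partner genes within a library remove the scaling between libraries. Prph2 exceeded Rom1 by 2.64 to 2.82 times in Het rods, 2.74 to 2.93 in KO rods, 2.88 to 2.99 in Het retina and 2.41 to 2.97 in KO retina, as a ratio of values not set per length. The log2 ratio differed by -0.02 between rods and retina (exact permutation test within genotypes, two-sided, p = 0.775) and by -0.01 between KO and Het (p = 0.885, within fractions), and neither difference passed. The KO minus Het difference of that ratio was 0.07 in rods and -0.10 in retina. These partners are 54.1% and 57.1% G or C.

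The other pairs varied more. Rp1 exceeded Rp1l1 by 2.04 to 2.81 times in Het rods and by 1.3 to 1.56 times in KO rods, which do not overlap, by 1.7 to 4.13 times in Het retina and by 1.7 to 3.29 times in KO retina, which overlap. The log2 ratio of this pair differed by -0.47 between KO and Het (exact permutation p = 0.09, adjusted 0.22 over 6 tests), with -0.72 in rods and -0.21 in retina, and by -0.45 between rods and retina (p = 0.11, adjusted 0.22). Rp1 at 39.6% and Rp1l1 at 55.2% G or C are the partners that differ most in composition. The log2 ratio of Impg2 to Impg1 was lower in rods than in retina by 0.23 (difference -0.23, exact permutation p = 0.035, adjusted 0.21) and differed by -0.03 between KO and Het (p = 0.65). None of the 6 tests passed after adjustment, and 0.005 is the smallest p that each could give.

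**Figure D5:**
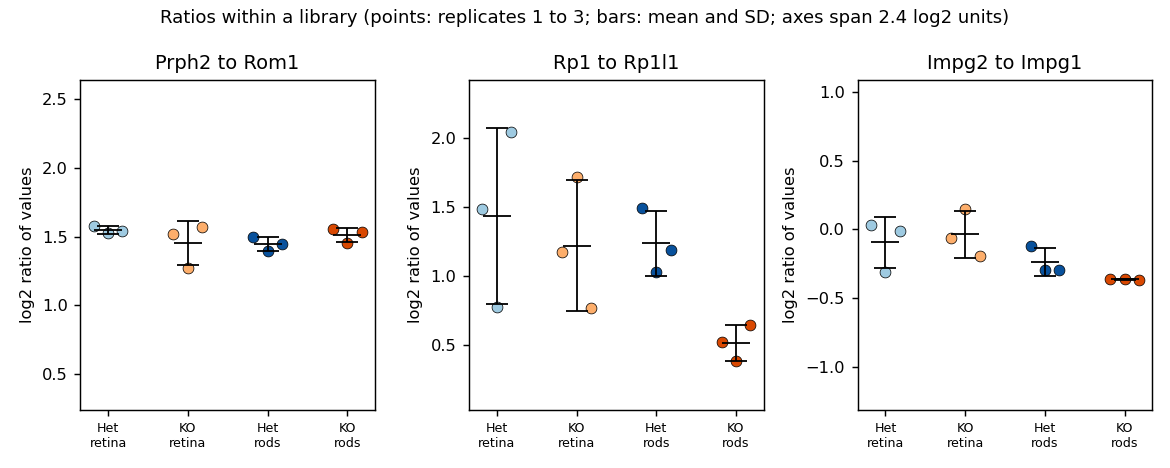
Log2 ratio of the values of 3 pairs of genes within each library, with bars for the mean and SD of the 3 libraries per group, on axes of equal span. The ratio of Prph2 to Rom1 stays between 2.41 and 2.99 on the linear scale, while that of Rp1 to Rp1l1 ranges from 1.3 in KO rods to 4.13 in Het retina.

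The genes whose log2 levels were most like those of each gene over the 12 libraries were found by Pearson's r, a description in which the difference between rods and retina weighs most. They were Vtn for Prph2 (r = 0.9988), Gpn3 for Rom1 (0.9971), Nt5e for Prom1 (0.9988), Pde6b, a subunit of the rod phosphodiesterase, for Cdhr1 (0.9987) and Tlcd3b for Prcd (0.9948). For Rp1 it was Pik3ca (0.9971), for Rp1l1 Esrrb (0.9985), for Impg1 Elovl4 (0.9981) and for Impg2 Tax1bp1 (0.9988). Among the 9 genes themselves, Prph2 was among the 3 genes most like Rom1 (r = 0.9968).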

How the data were processed

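RNA was sequenced from 12 libraries, and all of them were used. Groups come from the titles given with each sample, and 0 columns of the table belong to other samples. Per the labels, 100 ng of RNA entered a SMART-Seq V4 preparation, and the submitters' processing notes name CASAVA 1.8.2, HISAT2, edgeR, DESeq2 and GRCm39 without their roles. The counting tool, annotation and strand setting are not given in the sources used here. The values deposited by the authors are treated as a signal: whole numbers that look like read counts multiplied by 1 factor per library and rounded, a step inferred from the values. A count test was therefore not used.

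Values were scaled by TMM factors, raised by a pseudocount of 2, transformed to log2 and tested with limma 3.58.1 (trend and robust options) in R 4.3.3, on the groups compared only, and p-values were adjusted over all genes tested. Fold changes are on this scale. Genes needed a value of about 10 in at least 3 libraries and a sum of 15. The study left rod-depleted genes out when KO and Het rods were compared. Here these were the genes counted as lower in rods than in input of Het mice, a definition chosen for this work. GC content, length and overlaps come from GENCODE M21 on GRCm38, so no coordinates are given. The fits of KO against Het rods and of the interaction were tested on simulated data first, and the other fits were not. With 3 libraries per group an exact permutation test of 1 gene could not go below p = 0.10, so single genes were tested by limma only, and intervals of log2 differences are limma's.

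Replicate numbers are shared by the groups. Deviations of same-numbered Het rod and Het retina libraries correlated at 0.25 to 0.47 across genes, so those numbers were taken to pair the samples, with the pairing read from the titles and the data. In the other comparisons at least 1 pair was below 0.1. The main fits and the ratio tests did not use the pairing, so their SEs and p-values treat the libraries as unpaired. It entered only in the alternatives with a replicate block.

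The 9 genes are all named. From the other outer segment lists the 3 genes of highest mean over the libraries are named, except 2 that are not reported here, and from the whole table the gene most like each member. The members and lists were chosen with earlier results of these data known. Alternatives to the scaling, pseudocount, filter, fit, replicate block and GC content were tried.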

Additional observations from a re-analysis of the deposited data

How the results depend on the processing

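The 9 genes kept their direction in both comparisons of rods with retina under every alternative run. When 1 library was left out, 8 to 9 of them passed in Het mice, with 39.8% to 54.5% of all genes passing in either direction. In KO mice 9 passed, with 43.1% to 58.7% of all genes. In KO against Het rods the count of 3, with 14.7% of all genes passing, fell to 2 with library size only (15.4%), to 2 with rod-depleted genes kept (13.1%), to 1 without the filter on low values (8.49%), to 1 in limma without the trend and robust options (12.8%), to 0 with the GC trend subtracted (3.54%) and to 0 with the replicate block and the GC trend subtracted (4%). With all 12 libraries in the fit it was 0, where 0 of 11269 genes passed and 2529 had an unadjusted p below 0.05, and Prph2, Rom1 and Prcd were at 0.58, 0.51 and 0.65. Without 1 library it ranged from 0 to 3, with 9.31% to 17.3% of all genes passing. With the GC trend subtracted, with or without the replicate block, signs turned for Prom1 (0.01), Prcd (-0.07), Rp1 (0.082), Impg1 (0.21) and Impg2 (0.15). The replicate block alone left the count at 3, with 15.3% of all genes passing, and changed no call of the 9 genes in any comparison. The cause of these changes was not tested.

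Leaving out 1 library gave Impg1 values from -0.077 to 0.02 in KO against Het rods and Prph2 values from -0.19 to 0.29 in retina. For the log2 ratios, the same step gave -0.044 to 0.03 (Prph2 to Rom1, KO minus Het), -0.066 to 0.009 (Prph2 to Rom1, rods minus retina), -0.087 to 0.004 (Impg2 to Impg1, KO minus Het), -0.29 to -0.19 (Impg2 to Impg1, rods minus retina), -0.63 to -0.32 (Rp1 to Rp1l1, KO minus Het) and -0.62 to -0.30 (Rp1 to Rp1l1, rods minus retina). The last 3 passed, at an adjusted exact permutation p of 0.03, without Het retina replicate 2.

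Depth was estimated for 11 of 12 libraries. The lowest level of the 9 genes in a library was 70.8 ppm, for Prcd.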
